A study of Drosophila melanogaster with 6 samples.

Results

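The genes described here encode subunits of the proteasome in Drosophila melanogaster. They were taken as the rows of the count table whose symbol begins with Prosalpha, Prosbeta, Rpn or Rpt followed by a number, which gave 48 of 17609 genes. Of these, 32 are somatic subunit genes and 16 are paralogs that carry a T or an R after the subunit number, as in Prosalpha3T or Rpt6R. The rule does not match the symbol of Sem1, a small subunit of the proteasome lid, which is given with the partners below. RNA came from eye-antennal imaginal discs of larvae in the third instar, the epithelia that form the adult eyes, antennae and head capsule. In 3 dTet replicates, ey-Gal4 drove a UAS-dTet transgene, and in 3 control replicates ey-Gal4 was combined with W1118, so that all 6 carried the ey-Gal4 driver of the eye field. dTet is the single fly Tet protein, a dioxygenase related to the mammalian TET enzymes. The labels call the 3 samples of each genotype biological replicates, but give neither the sex of the larvae nor the number of discs pooled in a sample. The study asked how disc transcription changes with dTet overexpression, which had worsened an adult eye phenotype in its crosses.

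The proteasome degrades proteins that carry ubiquitin chains. Its 20S core is a barrel of outer alpha rings, which gate the channel, and inner beta rings, which hold the proteolytic sites. The 19S regulatory particle caps the barrel. Its base contains the Rpt ATPases, which unfold substrates and open the gate, and the large scaffold proteins Rpn1 and Rpn2, and its lid contains Rpn11, which cuts ubiquitin off the substrate. In flies and mammals the transcription factor of the Cnc/Nrf1 type raises the genes of the subunits together when degradation is impaired.

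Counted read pairs numbered 16395675 to 19966431 per dTet library and 18306991 to 20242356 per control library. Among markers of the tissue, 5 of 7 disc genes (so, eya, ey, dac and Optix) were lower in dTet and Dll and hth were higher, and all 7 had at least 85 counts in every library. Photoreceptor and neuronal markers were lower in 8 of 8, with a summed level of 70.4 to 74.8 CPM (counts scaled to a common library size with TMM factors) in dTet and 1073 to 1154 CPM in control. Glial markers were lower in 2 of 3, at 13.4 to 21.5 CPM in dTet and 33.5 to 35.1 CPM in control. Muscle markers were higher in 2 of 4, at 330.5 to 563 CPM in dTet and 204.4 to 231.4 CPM in control. Neither hemocyte markers (0 of 3 called, 107 to 127 CPM in dTet and 120.0 to 154.6 CPM in control) nor fat body markers (0 of 4, 269.5 to 710.2 CPM in dTet and 304.4 to 1477 CPM in control) passed the test. Of the RNAs of the male X chromosome, roX1 was lower in dTet and roX2 did not pass. The part of these cell types in the levels below was not tested, and in disc RNA fewer cells of a type and less RNA per cell cannot be told apart. Within the control group, replicate 1 stood apart from replicates 2 and 3 by transcript length. For tested genes with at most 1000 bases of exon, the median log2 CPM relative to the mean of the 6 libraries was -0.10, -0.12 and -0.17 in the dTet libraries, and -0.18, 0.41 and 0.25 in control replicates 1, 2 and 3.

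All 32 somatic subunit genes passed the filter on low counts, as did 4 of the 16 paralogs. Divided by exon length, so that genes can be compared, 31 of the somatic genes stood between percentile 87.9 and percentile 98.2 of all tested genes, with a median at 96.6. The gene left out, Prosalpha1, is described apart. In dTet discs the 31 levels spanned 82.6 CPM per kilobase for Rpn2 to 340.6 CPM per kilobase for Prosalpha2, a range of 4.13-fold with a coefficient of variation of 32.8%. In control discs they spanned 58.4 CPM per kilobase for Rpn2 to 405.5 CPM per kilobase for Prosbeta6, a range of 6.95-fold with a coefficient of variation of 44.2%. The control libraries differed in this. Control replicate 1 spanned 75.4 for Rpn2 to 305.9 for Prosalpha2. Control replicates 2 and 3 spanned 48.4 and 51.3 for Rpn2 to 484.5 and 448.4 for Prosbeta6. The core genes had higher medians than the genes of the regulatory particle in both genotypes, although the ranges overlapped. The median per kilobase was 279.9 in dTet and 314.3 in control for 6 alpha genes, 242.8 in dTet and 294.3 in control for 7 beta genes, 165.5 in dTet and 151.2 in control for 8 lid genes, and 164.5 in dTet and 149.3 in control for 10 base genes. The mean of the 13 core genes was 246.7 in control replicate 1, below the 255.3 to 293.1 of the dTet libraries. It was 365.1 and 339.5 in control replicates 2 and 3. The scaffold gene Rpn2 was lowest of the 31 in both genotypes. It was at 82.6 ± 2.21 CPM per kilobase in dTet and 58.4 ± 14.9 in control (mean ± SD, n = 3 each). Rpn1, the other scaffold gene, was at 109.3 ± 3.8 in dTet and 81.5 ± 16.3 in control, and the receptor gene Rpn13 had a mean of 106.8 in dTet and 116.3 in control. Within the ATPase ring, Rpt1 was highest at 229.3 ± 4.2 CPM per kilobase in dTet and 214.2 ± 23.1 in control, and Rpt3 was lowest in dTet at 133.8 ± 2.22, against 140.2 ± 13.8 in control.

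**Figure D1:**
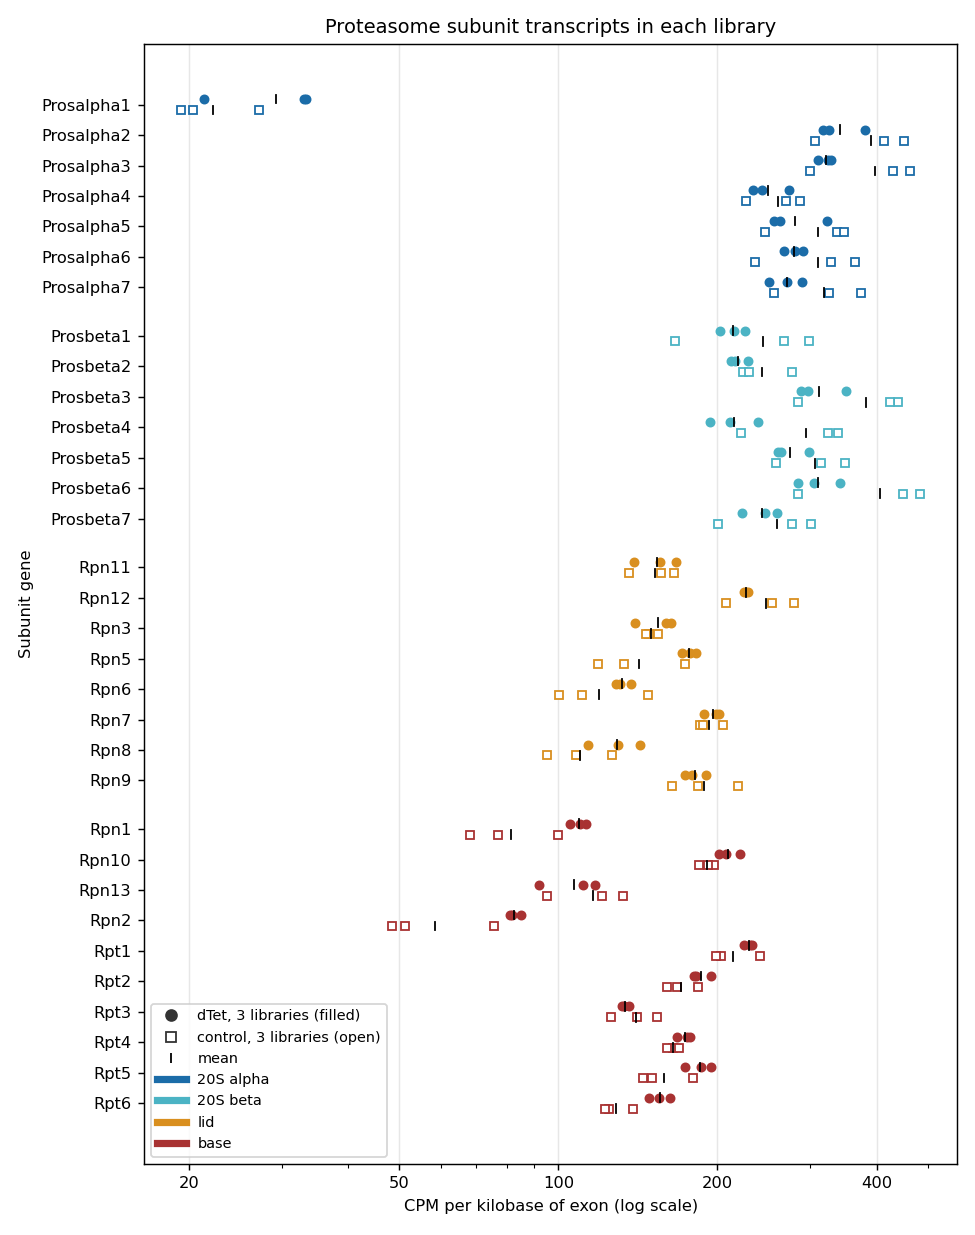
Level of each of the 32 somatic subunit genes in every library, as CPM per kilobase of exon on a log axis. Filled circles are the 3 dTet libraries, open squares the 3 control libraries and black ticks the group means; colours mark the alpha, beta, lid and base genes. Most core genes lie to the right of lid and base genes with some overlap, Prosalpha1 lies far to the left, and control squares are spread more widely than dTet circles.

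Prosalpha1, a subunit of the gate ring, was counted far below its neighbours in that ring. It stood at 29.2 ± 6.83 CPM per kilobase in dTet and 22.2 ± 4.23 in control, where the median of the other 6 alpha genes was 9.58-fold higher in dTet and 14.1-fold higher in control. The count table places it on chromosome arm 2R, minus strand, at 7827303 to 7828678 (dm6), and Prosalpha1R on the same strand at 7830413 to 7831771, a gap of 1734 bases. Both consist of 4 exon blocks whose starts are all offset by 3110 bases, and 3 of the 4 blocks have equal lengths of 580, 177 and 100 bases. Read pairs that map to several places are left out by the counting program's default, so pairs that could belong to either copy would be lost from both. Their sum, 43.3 CPM per kilobase in dTet and 39.7 in control, also lay below the other alpha genes. The sequences of the pair were not compared here, and the level of each is uncertain.

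No somatic subunit gene differed between dTet and control discs by edgeR's quasi-likelihood test at an adjusted p of 0.05, where 11.4% of all 9417 tested genes did, 3.77% higher and 7.64% lower in dTet. The smallest adjusted p was 0.086, for Rpn2. At an unadjusted p under 0.05 there were 4 of 32, against 28.8% of all tested genes: Prosbeta4 was lower and Rpn1, Rpn2 and Rpt6 were higher. The log2 fold changes lay between -0.46 and 0.50, with 15 above and 17 below 0 and a median of -0.06, against -0.02 for all tested genes. The median absolute log2 fold change was 0.15 for the 32 and 0.28 for all tested genes. Their standard errors ranged from 0.10 to 0.21, and the 95% intervals together reached from -0.83, for Prosbeta4, to 0.88, for Prosalpha1. The interval of Rpt4, which had the lowest SE, ran from -0.14 to 0.29, so the size of change that remains possible differs between genes. Groups did not overlap for 4 of 32, all in the base, against 32.6% of all tested genes. limma-voom called 0 of 32 at an adjusted p of 0.05, against 11.9% of its genes. It had 5 of 32 at an unadjusted p under 0.05, for which its share of all genes is not given here. DESeq2 called 3, Rpn1 and Rpn2 as higher and Prosbeta4 as lower, against 15.3% of its genes. Without a filter on low counts edgeR called Rpn2 alone, against 10.4% of its genes.

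**Figure D2:**
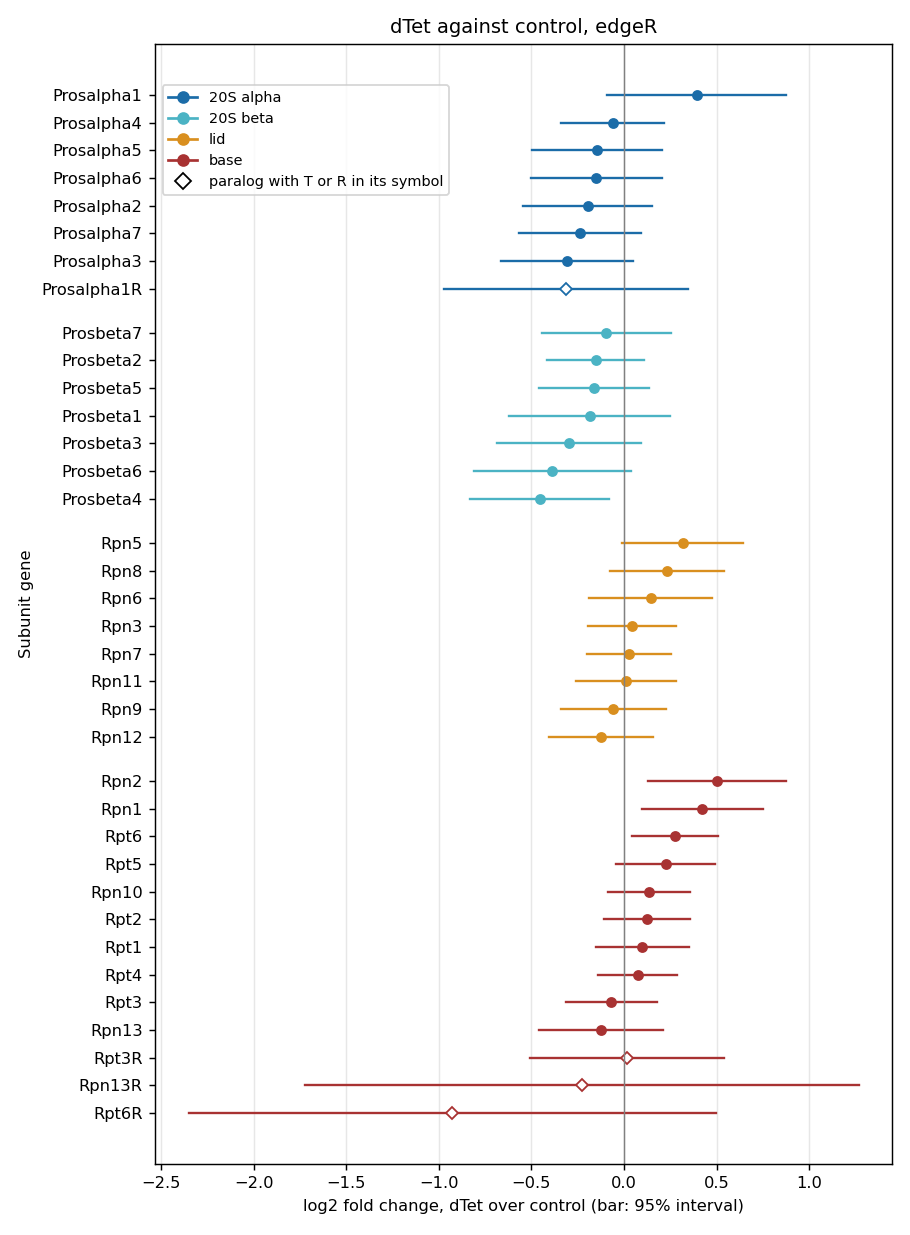
log2 fold change of dTet over control for the 36 tested members, with 95% intervals from the edgeR fit. Colours mark alpha, beta, lid and base genes, and open diamonds are paralogs. The core genes other than Prosalpha1 lie below 0, between -0.46 and -0.06, and Rpn1 and Rpn2 lie highest, at 0.42 and 0.50; no gene passed an adjusted p of 0.05.

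Among the alpha genes of the core, 6 of 7 had log2 fold changes below 0, with a median of -0.15. Prosalpha3 was lowest. Its dTet libraries held 315.0, 319.1 and 302.0 CPM, against 291.8, 450.6 and 417.3 CPM in control. Control replicate 1 lay below all dTet libraries and the other control libraries lay above them, so the groups overlapped (log2 fold change -0.31, SE 0.16, edgeR adjusted p = 0.23). Prosalpha1 was the only alpha gene above 0 (log2 fold change 0.39, SE 0.21, edgeR adjusted p = 0.261). It held 31.99, 32.3 and 20.7 CPM in dTet libraries, against 18.7, 26.3 and 19.7 CPM in control. The third dTet library lay inside the control range.

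All 7 beta genes had log2 fold changes below 0, with a median of -0.19 and none past the test. Prosbeta4, a structural subunit of the beta ring on 2L at 16731180 to 16732133, was lowest. It held 194.3, 158.1 and 172.1 CPM in dTet libraries, against 180.4, 275.1 and 264.0 CPM in control (log2 fold change -0.46, SE 0.17, edgeR adjusted p = 0.112; 0.000994 without control replicate 1 and 0.0478 by DESeq2). Its log2 fold change was -0.12 when a smooth trend with exon length was removed from each library (edgeR adjusted p = 0.415). Against control replicate 1 alone it was -0.05. Again only control replicates 2 and 3 stood above the dTet libraries. The proteolytic subunits are beta1, beta2 and beta5, which cut after acidic, basic and hydrophobic residues. Prosbeta1 held 183.4, 192.0 and 172.5 CPM in dTet libraries, against 141.7, 254.2 and 227.7 CPM in control (log2 fold change -0.19, SE 0.19, edgeR adjusted p = 0.553). Prosbeta2 held 236.1, 222.8 and 219.6 CPM in dTet libraries, against 231.1, 286.7 and 237.1 CPM in control (log2 fold change -0.15, SE 0.12, edgeR adjusted p = 0.413). Prosbeta5 held 338.8, 297.0 and 300.3 CPM in dTet libraries, against 293.6, 397.1 and 357.0 CPM in control (log2 fold change -0.16, SE 0.13, edgeR adjusted p = 0.448). For each of these proteolytic genes the groups overlapped, because control replicate 1 lay inside or below the dTet range. Prosbeta7 had the value nearest 0 in the ring, with 315.4, 299.4 and 270.2 CPM in dTet libraries and 244.1, 366.0 and 336.0 CPM in control (log2 fold change -0.10).

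The 8 lid genes had a median log2 fold change of 0.04, with 6 above and 2 below 0. Rpn11, the metalloprotease that removes ubiquitin from substrates, had 202.0, 188.2 and 167.8 CPM in dTet libraries, against 164.0, 199.8 and 189.3 CPM in control. The ranges overlapped almost wholly (log2 fold change 0.01, SE 0.12, 95% interval -0.26 to 0.28, edgeR adjusted p = 0.957). Rpn5, a scaffold protein of the lid, was highest, with 336.1, 325.1 and 345.0 CPM in dTet libraries, against 329.7, 252.5 and 225.0 CPM in control (log2 fold change 0.32, SE 0.14, edgeR adjusted p = 0.185). Here control replicate 1 lay within the dTet range and the other controls below it. Rpn12 was lowest of these 8 lid genes, with 227.3, 225.1 and 223.0 CPM in dTet libraries, against 206.3, 277.8 and 252.4 CPM in control (log2 fold change -0.12, SE 0.12, edgeR adjusted p = 0.539). Control replicate 1 was the lowest control library here, whereas it was the highest for Rpn5.

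Of the 10 base genes, 8 had log2 fold changes above 0, and the median was 0.13. The 4 genes whose groups did not overlap were Rpn1, Rpn2, Rpn10 and Rpt6, each higher in dTet. Rpn2, a scaffold on 3R at 29153524 to 29157255, held 276.3, 278.4 and 290.3 CPM in dTet libraries, against 257.4, 165.1 and 174.9 CPM in control (log2 fold change 0.50, SE 0.17, 95% interval 0.13 to 0.87). Rpn1, the other scaffold and a docking site for ubiquitin and for shuttle proteins, lies on 3L at 19915051 to 19918160. It held 343.2, 320.1 and 333.5 CPM in dTet libraries, against 303.1, 207.1 and 233.4 CPM in control (log2 fold change 0.42, SE 0.14, edgeR adjusted p = 0.0941). In both scaffolds control replicate 1 stood close below the dTet libraries and the other controls far below. Against control replicate 1 alone, the log2 fold change was 0.13 for both scaffolds. Rpt6, an ATPase singled out after its values were seen, held 228.8, 217.5 and 208.8 CPM in dTet libraries, against 194.2, 175.0 and 172.2 CPM in control (log2 fold change 0.28, SE 0.10, edgeR adjusted p = 0.119). Its control libraries lay closer together than those of the scaffolds. The ubiquitin receptor Rpn10 held 295.5, 313.5 and 285.8 CPM in dTet libraries, against 262.4, 280.0 and 272.9 CPM in control (log2 fold change 0.13, SE 0.10, edgeR adjusted p = 0.401). The other receptor, Rpn13, was lowest in the base, with 195.9, 186.1 and 153.9 CPM in dTet libraries, against 159.3, 222.1 and 202.1 CPM in control (log2 fold change -0.12, SE 0.15, edgeR adjusted p = 0.621). The 6 Rpt genes lay between -0.07 for Rpt3 and 0.28 for Rpt6, with a median of 0.11.

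The order of the control libraries followed the length of the subunit transcript. Core genes have 815 to 1215 bases of exon, lid genes 995 to 1945 and base genes 1404 to 3412. The level in control replicate 2 was 1.52 times that in control replicate 1 for Prosbeta4 (815 bases) and 1.71 times for Prosbeta6 (944 bases), but 1.10 times for Rpn7 (1393 bases), 0.75 times for Rpn6 (1945 bases) and 0.64 times for Rpn2 (3412 bases). Control replicate 3 against control replicate 1 gave 1.46 for Prosbeta4, 1.58 for Prosbeta6, 1.01 for Rpn7, 0.68 for Rpn6 and 0.68 for Rpn2. Genes of middle length did not all follow this order, since Rpn13 (1672 bases) gave 1.39 and Rpt5 (1627 bases) gave 0.81 in control replicate 2. Across the 32 genes, the deviation of each library from the mean of the 6 correlated with log2 exon length at Pearson's r = 0.50, 0.55 and 0.82 in dTet replicates 1, 2 and 3, and at 0.77, -0.87 and -0.77 in control replicates 1, 2 and 3. Over all tested genes these correlations were -0.02, -0.04 and -0.01 in dTet, and 0.16, -0.05 and -0.02 in control. These values are a description across genes that share libraries, and deviations from one mean must balance, so they are not independent. Between replicates, the median SD of log2 CPM over the 32 genes was 0.07 in dTet and 0.23 in control, and it was the larger in control for 28 of 32. How often the SD was larger in control over all tested genes was not counted.

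**Figure D3:**
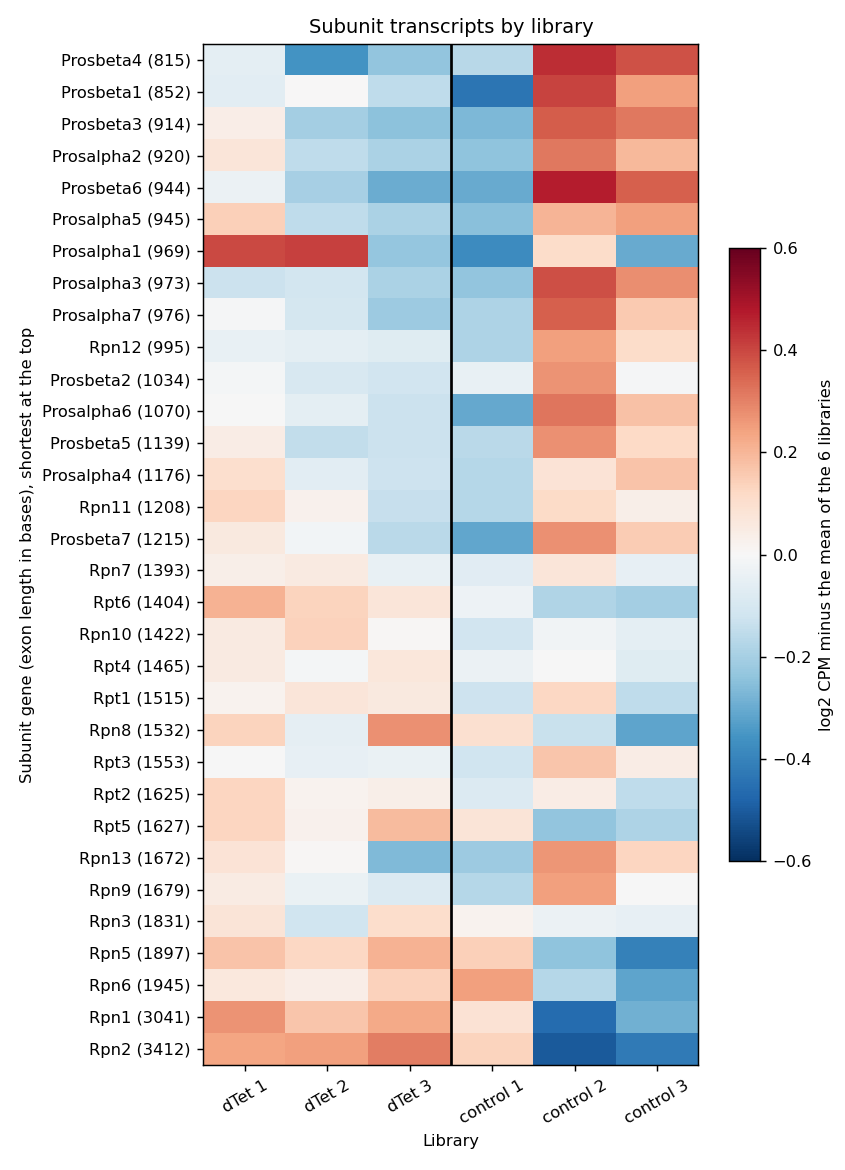
Deviation of log2 CPM from the mean of the 6 libraries for the 32 somatic subunit genes (rows, shortest exon length at the top) in each library (columns, dTet left of control). Red is above and blue below the gene's mean. Control replicates 2 and 3 are red for most short genes and blue for Rpn5, Rpn6, Rpn1 and Rpn2. Control replicate 1 is blue for the short genes; the median deviation of the core genes was 0.02, -0.11 and -0.19 in the dTet libraries and -0.24, 0.32 and 0.18 in control replicates 1, 2 and 3.

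A ratio within each library describes the same values by subcomplex. Median exon length is 1589 bases for the 18 particle genes and 971 for the 14 core genes, so the ratio also sets longer genes over shorter ones. The geometric mean level per kilobase of the 18 genes of the 19S particle over that of 13 core genes, Prosalpha1 left out, was 0.555, 0.586 and 0.617 in the dTet libraries. In control it was 0.603 in replicate 1, which lies inside the dTet range, and 0.406 and 0.410 in replicates 2 and 3. The summed core level varied more between libraries than that of the particle, and its dTet values lay inside the control range. Summed core level was 3810, 3454 and 3318 CPM per kilobase in dTet, against 3207, 4747 and 4414 in control replicates 1, 2 and 3. The summed level of the 19S particle was 2982, 2877 and 2905 CPM per kilobase in dTet, against 2730, 2831 and 2618 in control.

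The fold changes followed length too. Across the 32 genes, log2 fold change and log2 exon length gave Pearson's r = 0.77 and, with exon length, Spearman's rho = 0.77, a description across genes of the same 6 libraries. Over all 9417 tested genes the same measures were -0.02 and 0.18. Among the 32, length also goes with subcomplex, the core genes being short, so length and subcomplex cannot be told apart. In 10 subunit genes of at most 1000 bases the median log2 fold change was -0.22, against -0.31 for the 1658 tested genes of that length. Between 1000 and 1500 bases it was -0.02 for 10 subunit genes, against -0.17 for 1478 genes, and between 1500 and 2000 bases it was 0.11 for 10 subunit genes, against -0.0016 for 1351 genes. The only subunit genes over 3000 bases, Rpn1 and Rpn2, had 0.42 and 0.50, against a median of 0.09 for 3069 genes.

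**Figure D4:**
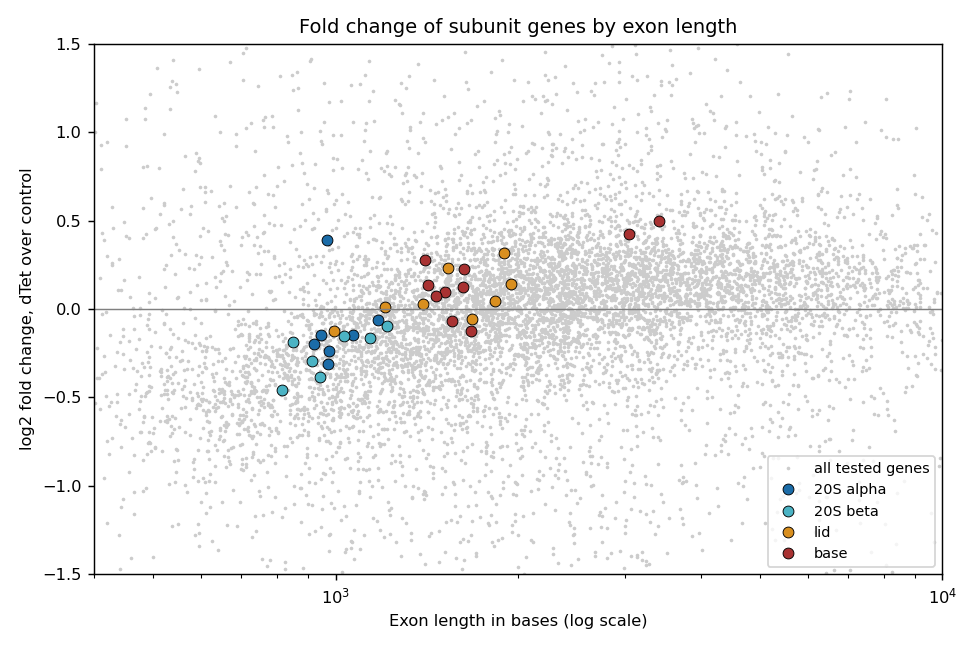
log2 fold change of dTet over control against exon length in bases (log axis) for the 32 somatic subunit genes, coloured by subcomplex, and for other tested genes in grey; of the 9417 tested genes, 8141 fall within the axes and 1276 outside are not drawn. Subunit genes run from Prosbeta4 (815 bases, -0.46) to Rpn2 (3412 bases, 0.50), and Prosalpha1 stands off at 0.39.

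The calls depended on control replicate 1. Without it, edgeR called 18 of 32 somatic genes, where it called 33.3% of all tested genes. The 7 higher genes, against 14.5% of all tested, were Rpn1, Rpn2, Rpn5, Rpn6, Rpn8, Rpt5 and Rpt6, and none belonged to the core. The 11 lower genes, against 18.8% of all tested, were Rpn12 and 10 core genes, Prosalpha2, Prosalpha3, Prosalpha6, Prosalpha7, Prosbeta1, Prosbeta3, Prosbeta4, Prosbeta5, Prosbeta6 and Prosbeta7. With control replicate 1 as the only control, edgeR called 0 of 32 (4 at an unadjusted p under 0.05), against 7.76% of all tested genes. In that fit the lone control is taken to vary like the dTet libraries, and 29 of 32 log2 fold changes were above 0, with a median of 0.13. When a smooth trend with exon length was removed from each library, which was chosen after seeing the data, 26 of 32 were above 0 with a median of 0.12. The trend was fitted over all tested genes. Among the 32, log2 fold change and log2 exon length still gave Pearson's r = 0.36 after its removal, against 0.77 before. That fit called 4 of 32, all higher in dTet, against 15.5% of all tested genes: Prosalpha1 at 0.65, Rpn2 at 0.40, Rpt6 at 0.36 and Rpn1 at 0.34 on the log2 scale (edgeR adjusted p between 0.0317 and 0.0398). The median log2 fold change of the core was -0.17 in all 6 libraries. It was -0.35 without control replicate 1 and -0.078 without control replicate 2, but 0.075 after removal of the length trend and 0.14 against control replicate 1 alone. That of the base was 0.13 in all 6 libraries, 0.19 after removal of the trend and 0.14 against control replicate 1 alone.

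The 16 paralogs are duplicates of single subunit genes, several of them known in flies for expression in the testis. In these discs 5 had no count in any library (Prosalpha3T, Prosalpha4T1, Prosbeta2R1, Prosbeta4R1 and Prosbeta4R2), 6 had 1 to 9 counts over all 6 libraries and 5 had 10 or more. Prosbeta4R2 has an exon that overlaps one of Or23a on the same strand, and the effect of this on its count was not tested. For Prosalpha3T, 0 counts against 17289 of Prosalpha3 in dTet and 21643 in control allow a share of up to 0.0174% in dTet and 0.0139% in control. These limits, and the intervals of shares below, cover counting error only. The 6 with few counts were Prosalpha4T2, Prosalpha6T, Prosbeta5R1, Prosbeta5R2, Rpn12R and Rpt4R. The highest total was 9, for Rpn12R, which had 0, 0 and 0 counts in dTet libraries and 7, 1 and 1 in control. All counts of these 6 genes came from control libraries, but they are too few to compare the genotypes. How often other genes with so few counts have them in 1 genotype only was not counted. Prosbeta2R2, given below, had most of its few counts in dTet. Among the 14 testis markers 4 had no count, and the summed level was 10.9 to 15.9 CPM in dTet and 11.3 to 13.4 CPM in control. Most of that sum was twe, the only one of them tested, at 8.52 to 14.5 CPM in dTet and 9.24 to 11.6 CPM in control.

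Prosbeta2R2 had 7, 0 and 8 counts in dTet libraries, against 0, 2 and 0 in control, too few for the test. Rpt3R, a copy of an ATPase gene, was the best expressed paralog outside the Prosalpha1 pair. It held 9.15, 8.09 and 8.80 CPM in dTet libraries, against 10.04, 8.08 and 7.59 CPM in control, and made 4.01% of the counts of Rpt3 and Rpt3R in dTet (exact Clopper-Pearson 95% interval 3.66% to 4.37%), against 3.85% in control (3.52% to 4.20%). Its log2 fold change was 0.02 (SE 0.23, edgeR adjusted p = 0.973). Rpt6R held 1.91, 0.437 and 1.17 CPM in dTet libraries, against 1.63, 2.56 and 2.51 CPM in control. The first dTet library lay inside the control range, and the log2 fold change of -0.93 did not pass (SE 0.63, 95% interval -2.35 to 0.49, edgeR adjusted p = 0.362). Rpn13R held 0.837, 0.601 and 2.64 CPM in dTet libraries, against 1.59, 1.51 and 1.71 CPM in control, so that a single dTet library lay above and the others below all controls (log2 fold change -0.23, SE 0.66, edgeR adjusted p = 0.845; -1.16 without dTet replicate 3 and 0.13 without dTet replicate 2). Prosalpha1R held 16.3, 10.9 and 13.0 CPM in dTet libraries, against 10.3, 23.1 and 16.5 CPM in control (log2 fold change -0.31, SE 0.29, edgeR adjusted p = 0.507). Of the pooled counts of the Prosalpha1 pair it made 32.2% in dTet (exact Clopper-Pearson 95% interval 30.3% to 34.2%) and 43.2% in control (41.0% to 45.3%). Counts of Prosalpha1R and Prosalpha1 were 272 and 535, 199 and 591, and 265 and 423 in dTet replicates 1, 2 and 3. In control replicates 1, 2 and 3 they were 221 and 401, 414 and 471, and 289 and 345. The intervals leave out this spread between libraries, and the level of each gene is uncertain, as stated above.

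Of 26 genes listed as partners and regulators of the proteasome, 25 were found in the table and tested. By edgeR, 1 was lower in dTet and none higher at an adjusted p of 0.05, against the 11.4% of all tested genes given above. At an unadjusted p under 0.05 there were 13, and 28.8% of all tested genes were below that p, which also applies to the counts of the single lists given next. The median log2 fold change was 0.06. The lower gene was Pomp, whose yeast and mammalian homologs bring beta subunits into the core particle and are degraded as its first substrate. It lies on 2L at 20787656 to 20789098. Its level was 136.0, 130.4 and 117.9 CPM in dTet libraries, against 184.9, 349.7 and 255.8 CPM in control. All dTet libraries were below all controls, control replicate 1 included (log2 fold change -1.04, SE 0.20, 95% interval -1.5 to -0.58, edgeR adjusted p = 0.0108). Its log2 fold change was -0.53 against control replicate 1 alone. After removal of the length trend it was -0.81, where Pomp also passed (edgeR adjusted p = 0.00203). The call ended without dTet replicate 2 (log2 fold change -1.05, edgeR adjusted p = 0.051) and without dTet replicate 3 (-0.99, edgeR adjusted p = 0.0667). Over all settings the adjusted p ran from 2.27e-06 to 0.0667.

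The remaining 3 tested genes of assembly and activation, REG, PI31 and ntc, did not pass. REG, a homolog of the mammalian PA28 gamma cap, held 287.4, 252.8 and 271.8 CPM in dTet libraries, against 274.3, 237.1 and 269.5 CPM in control (log2 fold change 0.06, SE 0.11, edgeR adjusted p = 0.766). PI31, a proteasome-binding regulator, held 121.4, 110.7 and 104.7 CPM in dTet libraries, against 115.4, 158.5 and 144.5 CPM in control (log2 fold change -0.31, SE 0.14, edgeR adjusted p = 0.164). Control replicate 1 lay inside the dTet range of PI31 and the other controls above it.

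Of the Cnc transcription factor and its partners, 0 of 6 passed edgeR, with 3 at an unadjusted p under 0.05. cnc itself, on 3R at 23185580 to 23226711, held 185.3, 211.4 and 198.4 CPM in dTet libraries, against 172.0, 142.4 and 128.6 CPM in control. All dTet libraries were above all controls (log2 fold change 0.43, SE 0.13, 95% interval 0.13 to 0.72, edgeR adjusted p = 0.0658). It passed by DESeq2 (adjusted p = 0.0275), by edgeR without control replicate 1 (0.00212) and after removal of the length trend (0.0411), and over all settings the adjusted p ran from 0.00212 to 0.376. maf-S, the small Maf partner of Cnc, held 51.1, 58.2 and 45.2 CPM in dTet libraries, against 48.4, 112.6 and 87.5 CPM in control (log2 fold change -0.69, SE 0.26, edgeR adjusted p = 0.125). It passed by DESeq2 (adjusted p = 0.0341), by edgeR without a filter on low counts (0.0415) and by edgeR without control replicate 1 (log2 fold change -0.98, adjusted p = 0.000579), and over all settings the adjusted p ran from 0.000579 to 0.885. Its control replicate 1 lay inside the dTet range, and its exon length is 646 bases. Keap1, whose product restrains Cnc, held 34.4, 39.9 and 37.5 CPM in dTet libraries, against 40.7, 33.6 and 32.6 CPM in control (log2 fold change 0.06, SE 0.14, edgeR adjusted p = 0.792).

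**Figure D5:**
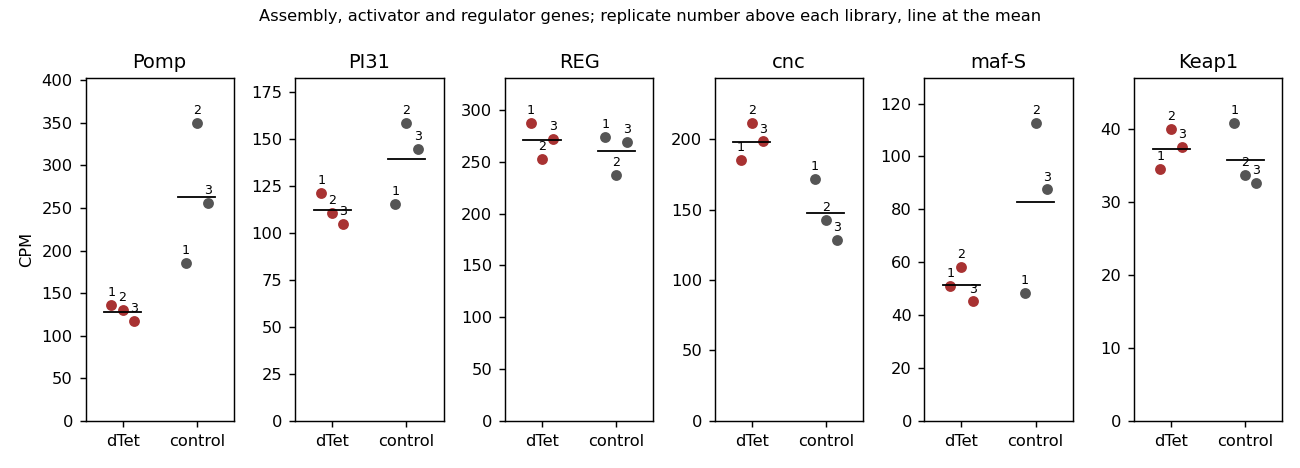
CPM in each library for Pomp, PI31, REG, cnc, maf-S and Keap1, dTet left of control, with the replicate number above each point and a line at the group mean. Pomp lies lower in all dTet libraries than in any control and cnc higher, whereas for PI31 and maf-S control replicate 1 sits among the dTet libraries.

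The list of Sem1 with shuttles and deubiquitinases (Uch-L5, Usp14, Ubqn and Rad23) gave 0 of 5 calls by edgeR, with 2 at an unadjusted p under 0.05, and log2 fold changes of -0.53 to 0.27. Sem1, the lid subunit outside the symbol rule, was lowest at -0.53 (SE 0.23, edgeR adjusted p = 0.172) and has 427 bases of exon. That value lay below the lowest of the 32 genes above, -0.46 for Prosbeta4. Sem1 held 124.5, 124.3 and 105.0 CPM in dTet libraries, against 106.6, 226.6 and 177.3 CPM in control. Its control replicate 1 lay inside the dTet range and the other controls above it. The p97 ATPase TER94, its cofactors Ufd1, Npl4 and p47 and the autophagy adaptor ref(2)P also gave 0 of 5, with 2 at an unadjusted p under 0.05, from -0.17 to 0.31. The ubiquitin genes and the E1 gene gave 0 of 5, with 4 at an unadjusted p under 0.05. The lowest was RpL40, a ubiquitin fusion gene of 659 bases, at -0.64, and the highest were Ubi-p5E, of 2390 bases, and the E1 gene Uba1, of 4343 bases, both at 0.41. Control replicate 1 lay inside the dTet range of RpL40 and the other controls above it. For Ubi-p5E control replicate 2 lay inside the dTet range, and for Uba1 all controls lay below it, control replicate 1 closest. Ubi-p63E, of 3138 bases, was at -0.13. Ubi-p63E and Ubi-p5E code for repeats of ubiquitin and RpL40 and RpS27A for a ubiquitin fused to a ribosomal protein, and pairs that map to several places are left out, so their levels are uncertain.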

How the data were processed

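Total RNA of eye-antennal discs was made into stranded libraries, per the labels' protocols, and aligned to dm6 with HISAT2 2.2.0, per the submitters' processing notes. The deposited values are raw counts, 1 per gene symbol and library. Per the file headers, they came from featureCounts 2.0.6, which assigned read pairs to FlyBase 6.45 exons with reverse strandedness. Of the 48 genes, 15 have exons that overlap an exon on the opposite strand and 1 on the same strand.

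Counts were fitted over the whole table with edgeR 4.0.16 in R 4.3.3 (filterByExpr, TMM, glmQLFit and glmQLFTest, no covariates), which tested 9417 genes. The Benjamini-Hochberg adjustment covered all of them. SE and 95% intervals were derived from each log2 fold change with its F value. CPM are counts relative to the TMM-scaled library size, and CPM per kilobase divides by the exon length in the table. Alternatives were other scalings and filters, DESeq2 1.42.0, limma-voom (limma 3.58.1), the replicate number as a block, each library left out, and, added after seeing the data, a loess trend on exon length (span 0.3) and control replicate 1 as the only control. A share that a count of 0 allows uses 3 counts.

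Values per library are given for called members, proteolytic subunits, ubiquitin receptors, Rpn11, the highest and lowest fold change in each subcomplex, paralogs with 10 or more counts, and 6 fixed partners. The members and lists were chosen with earlier results of these data known. Ecm29 was not matched to a symbol of the table.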

Additional observations from a re-analysis of the deposited data

How the results depend on the processing

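With all 6 libraries, 0 somatic subunit genes were called higher and 0 lower under DESeq2's size factors, upper quartile scaling, a filter at 1 CPM in 3 libraries, limma-voom and the replicate block. The number was 1 higher without a filter, and 2 higher and 1 lower by DESeq2. With one library left out it was 0 to 7 higher and 0 to 11 lower, and it was above 0 only without control replicate 1. After removal of the length trend it was 4 higher. The replicate block was tried although same-numbered libraries did not deviate together (correlations 0.03, 0.02 and -0.10 of deviations from group means), and it called 0 of 32, with 3 at an unadjusted p under 0.05. Shares of all tested genes are not given for the block, the other scalings or the filter at 1 CPM. The counts of subunit genes under these settings therefore have no background beside them.

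The median log2 fold change of the 32 genes, -0.06 with all libraries, was 0.12 after removal of the length trend and 0.13 against control replicate 1 alone. For the core these values were 0.075 and 0.14, and for the lid and base 0.13 and 0.19 after removal of the trend. No alternative scaling moved the median of all tested genes by more than 0.1.

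Of the values whose sign turned, none had passed edgeR's main setting, and maf-S had passed by DESeq2 and without a filter. Rpn11 was -0.0002 under upper quartile scaling and -0.0083 without a filter, and Rpt3R -0.0024 without a filter. After removal of the length trend Prosbeta1 was 0.15, Prosbeta2 0.074, Prosbeta5 0.034, Prosbeta7 0.076, Rpn12 0.13 and Keap1 -0.0435. Against control replicate 1 alone Prosbeta1 was 0.37, Prosbeta5 0.087, Prosbeta7 0.27, Prosalpha3 0.10, Prosalpha1R 0.37, Rpn13 0.16, Rpn12 0.13, Rpt3R -0.21, maf-S 0.088, Keap1 -0.13 and REG -0.019. With one library left out, Rpn11 ran from -0.083 to 0.072, Rpt3R from -0.068 to 0.13, Rpn13R from -1.16 to 0.13, Prosbeta7 from -0.27 to 0.016, REG from -0.013 to 0.10 and Keap1 from -0.0017 to 0.15. The cause was not tested.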
